A study of Homo sapiens with 7 samples.

Results

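The genes described here encode proteins that bind the poly(A) tail and proteins that work with them. They were chosen by symbol, with earlier results of these data known. All 9 of them (PABPN1, PABPC1, PABPC4, PABPC1L, ZC3H14, PAIP1, PAIP2, LARP1 and LARP4) were found among the 16044 genes with sense PASs in the deposited count tables. Together they hold 65 of the 72453 sense PASs listed. A PAS is the poly(A) site at which a transcript is cleaved and given its tail, so that 1 gene can make several PAS isoforms.

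Poly(A) polymerases (PAPs) add the tail in the nucleus, where PABPN1 coats the growing tail and stimulates the polymerase, and where the zinc finger protein ZC3H14 also binds poly(A). In the cytoplasm the tail is held by the PABPC proteins, which join it to the translation machinery and take part in the control of deadenylation. PAIP1 promotes and PAIP2 represses translation through PABPC1, and the La-related proteins LARP1 and LARP4 bind both PABPC1 and mRNA. LARP1 is best known for its hold on the mRNAs of ribosomal proteins and translation factors, which include PABPC1.

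All 7 libraries came from total RNA of HEK293, an established human embryonic kidney line, after siRNA transfection. Batch 1 held cells given a control siRNA (siCtrl) or siRNAs against Star-PAP (siStar-PAP), PAPα (siPAPα) or PAPγ (siPAPγ), sequenced with 3′READS, which counts reads at the cleavage site, where the poly(A) tail begins. The double knockdown (KD) of PAPα and PAPγ was also made with 3′READS and was set against the same siCtrl library. Its batch is not given. In batch 2 a siCtrl and a siStar-PAP library were made by 3′READS+, a later form of the protocol. The siStar-PAP KD was therefore the only one with a second library, and there was 1 library per condition and batch. The 4 comparisons outside batch 2 share their control, and nothing in the labels says that the batches were separate cultures. Sense reads in the tables numbered from 2347192 (siStar-PAP, batch 2) to 16191098 (siPAPα), or 54.5% to 70.5% of the PASS reads that support a poly(A) site. A level is given below as RPM, that is reads per 1000000 PASS reads. A read marks 1 end of 1 transcript, so that RPM needs no correction for transcript length. Fewer cells of a kind and less RNA per cell cannot be told apart in such bulk samples. Intervals are at the 95% level and cover counting error only.

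TUT1, which encodes Star-PAP, had 83 reads in siCtrl and 2 in siStar-PAP of batch 1, but 6 and 4 in batch 2, where the counts are too low to check the label. PAPOLA, which encodes PAPα, had 71 reads in siCtrl, 12 in siPAPα and 8 in the double KD, against 78 siCtrl reads listed with the latter. PAPOLA was also past 2-fold lower in siStar-PAP of batch 1, with 44 reads (log2 ratio −1.22). PAPOLG, which encodes PAPγ, had 5 reads in siCtrl, 28 in siStar-PAP of batch 1 and 36 in siPAPα. It had 15 in the library labelled siPAPγ and 6 in the double KD, so these reads do not check the PAPγ labels. The study reports immunoblots that showed each KD and no apparent change of the other PAPs. The HEK293 genes KRT18 and VIM were read in every library (KRT18 from 11580 to 37608 reads), whereas PAX2 had 0 to 14 reads. VIM had 340 to 2019 reads, KRT8 2 to 59 and NEFM 1 to 280. NEFM stood at 3.06 RPM in siCtrl of batch 1, 1.39 in siStar-PAP and 9.94 to 11.8 in the other KDs of 3′READS. PTPRC, PECAM1 and ALB, markers of leukocytes, endothelium and hepatocytes, had 0 reads in all 7 libraries, which allows at most 0.147 to 0.868 RPM by library. COL3A1, a marker of fibroblasts, had 0 to 5 reads.

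The 30 bases of hg19 that end at the PAS are shown for 10 sites that the results below turn on, among them the only site of PABPN1, in the sense direction, 5′ to 3′. The poly(A) signal is in capitals. It was searched in the 40 bases before the PAS on the sense strand as AATAAA, failing that as ATTAAA, and failing both as any of AGTAAA or TATAAA or CATAAA or GATAAA or AATATA or AATACA or AATAGA or AAAAAG or ACTAAA or AATGAA. Sites are named by their distance past the stop codon of the annotated transcript. PASs of a gene within 30 nt of each other, in 1 table or in different ones, were taken as 1 site. This limit was set after the positions had been seen. A site that a table does not list was counted as 0 reads there. Fisher's exact tests below used each PAS as listed, before this joining. Rare PASs were dropped by the authors, so a PAS with 0 reads in siCtrl owes its listing to other libraries. Its p-value rests in part on the reads that listed it and is no independent support for a rise.

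PABPC4 at 885 nt, chr1:40026488-40026517, minus strand: tcccAATAAAgaaaaaaaatctccataaaa
PABPC4 at 782 nt, chr1:40026591-40026620, minus strand: tgggttctgctgtggcccagacagtgttaa
LARP1 at 3512 nt, chr5:154197136-154197165, plus strand: gtataaaAATAAAcacttgaaaaggcaaaa
LARP1 at 3397 nt, chr5:154197021-154197050, plus strand: aatattattgagagtatctgctttccaggc
PAIP1 at 1112 nt, chr5:43526369-43526398, minus strand: AATAAAgcttaaatagttgtttcctctaaa
PAIP1 at 268 nt, chr5:43527213-43527242, minus strand: tggctgcAATAAAatcgattttgaAATAAA
LARP4 intronic site, chr12:50855241-50855270, plus strand: ttatattaAATAAAtacgttattttcagaa
ZC3H14 at 140 nt, chr14:89078203-89078232, plus strand: ttcataatatgaagttttattgcctatcta
ZC3H14 at 1761 nt, chr14:89079824-89079853, plus strand: acaaggaaatAATAAAatactaaaatctga
PABPN1 at 880 nt, chr14:23795343-23795372, plus strand: catgAATAAAgttgtttttgaaAATAAAaa

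In the whole series AATAAA stood in this window at 45.2% of the 72453 sense PASs, ATTAAA without AATAAA at 15.7%, another of these hexamers at 20.3%, and none at 18.8%. The PABPC4 site at 782 nt, the LARP1 site at 3397 nt and the ZC3H14 site at 140 nt had none of them, while both PAIP1 sites and the intronic LARP4 site carried AATAAA. A match only describes the letters in this window.

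In hg19, PABPC4 (gene ID 8761 in the tables) lies on chromosome 1 from 40026381 to 40042462. PAIP1 (10605) lies on chromosome 5 from 43526369 to 43557860, PAIP2 (51247) from 138677276 to 138705409, and LARP1 (23367) from 154062546 to 154197165 of the same chromosome. PABPC1 (26986) lies on chromosome 8 from 101698044 to 101735037, and LARP4 (113251) on chromosome 12 from 50786166 to 50873787. On chromosome 14 are PABPN1 (8106), from 23790666 to 23795372, and ZC3H14 (79882), from 89029314 to 89093940. PABPC1L (80336) lies on chromosome 20 from 43538701 to 43587676. The printed PABPC4, LARP1, PAIP1, ZC3H14 and PABPN1 sites are in the annotated 3′UTR, and that of LARP4 is in an exon of another transcript.

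The levels were spread over a wide range within a library (plot of RPM by library). In siCtrl of batch 1 the order was ZC3H14 (57.4 RPM), PABPC1 (22.2), PAIP1 (16.0), LARP4 (8.31), PAIP2 (6.30), PABPC1L (5.60), LARP1 (4.38), PABPC4 (2.01) and PABPN1 (0.438). The intervals of neighbours overlapped from LARP4 down to LARP1 and nowhere else. In siCtrl of batch 2 the order began instead with PABPC4 (100.8 RPM), PABPN1 (38.6), PAIP2 (38.0), ZC3H14 (29.1) and LARP1 (25.6), and ended with PAIP1 (7.92). Only PABPC4 over PABPN1 and PABPC1L over PABPC1 were neighbours whose intervals did not overlap in that library. For PABPC4, PABPN1, PABPC1L, PAIP2 and LARP1 both levels of batch 2 were above all 5 levels of 3′READS. Ratios and tests below are therefore taken within a table. Counts and shares of siCtrl are those of the batch 1 table unless stated, and its counts in the table of the double KD differ for PABPC1, PABPC1L, ZC3H14, PAIP2 and LARP1 (258, 67, 668, 66 and 38 reads).

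**Figure D1:**
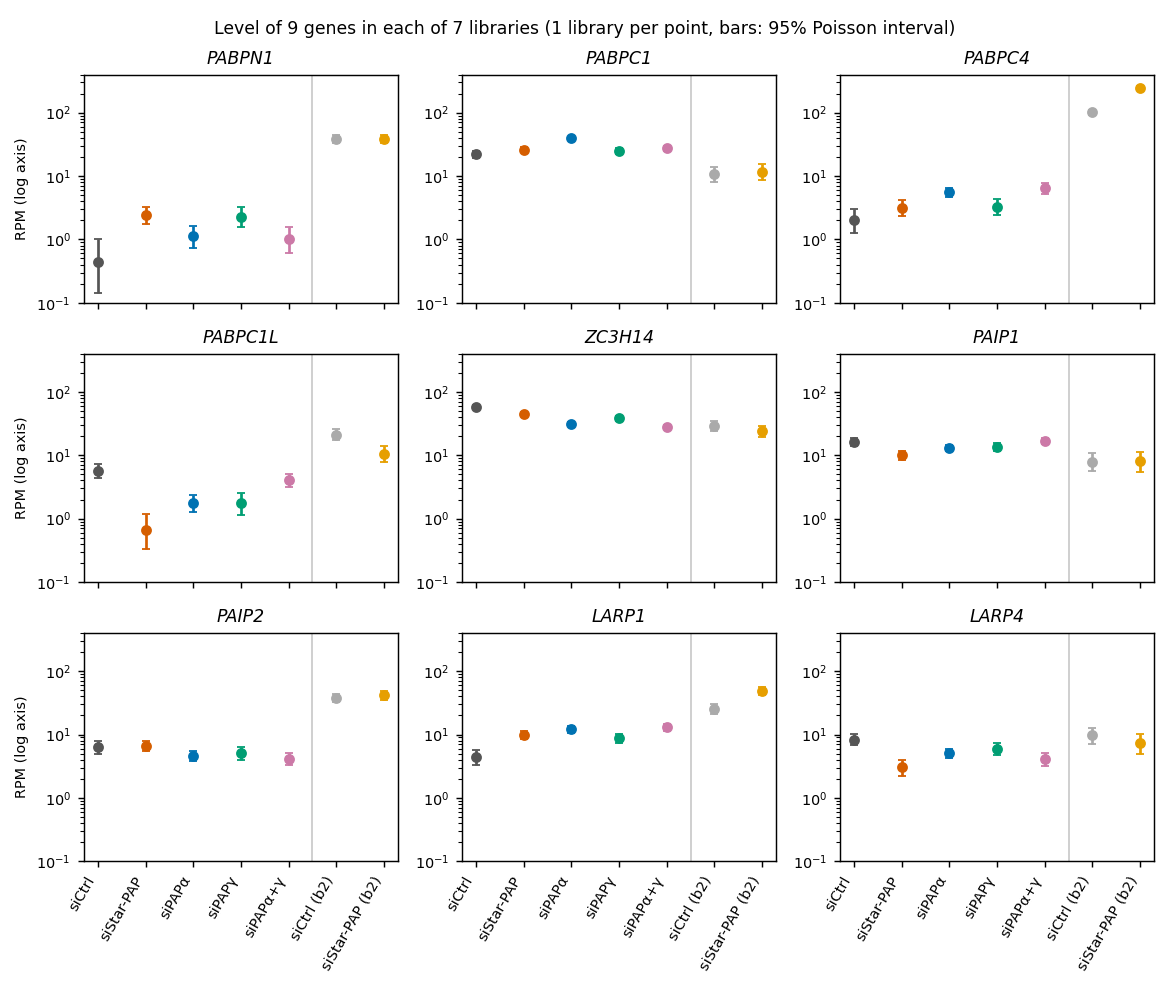
Level of each of the 9 genes in each of the 7 libraries, in RPM on a log axis. Each point is 1 library, bars are 95% Poisson intervals, and the grey line parts the libraries made with 3′READS (left) from batch 2 (b2, right). PABPC4 lies at 2.01 to 6.39 RPM on the left and at 100.8 and 244.0 RPM on the right.

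Members were called past a limit of 2-fold with more than 50 reads in the pair of libraries, without a test. By this rule 1 of the 8 genes over the read limit was higher and 2 were lower in siStar-PAP of batch 1, where 4.44% of all genes were higher and 26.2% lower. In siPAPα 2 were higher and 1 was lower (8.50% and 22.1% of all genes), with siPAPγ 0 and 1 (5.67% and 20.7%), with the double KD 2 and 2 (6.98% and 26.5%), and with siStar-PAP of batch 2, where all 9 genes were over the limit, 1 and 1 (3.55% and 11.7%). The median log2 ratio of the members over the read limit was −0.15, −0.36, −0.27, −0.20 and 0.01 in the order of these comparisons, and that of all genes −0.45, −0.26, −0.33, −0.38 and −0.16. Scaling by TMM or size factors moved the median of all genes up by 0.18 to 0.48, so each ratio below is also to be read against the median of its comparison.

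**Figure D2:**
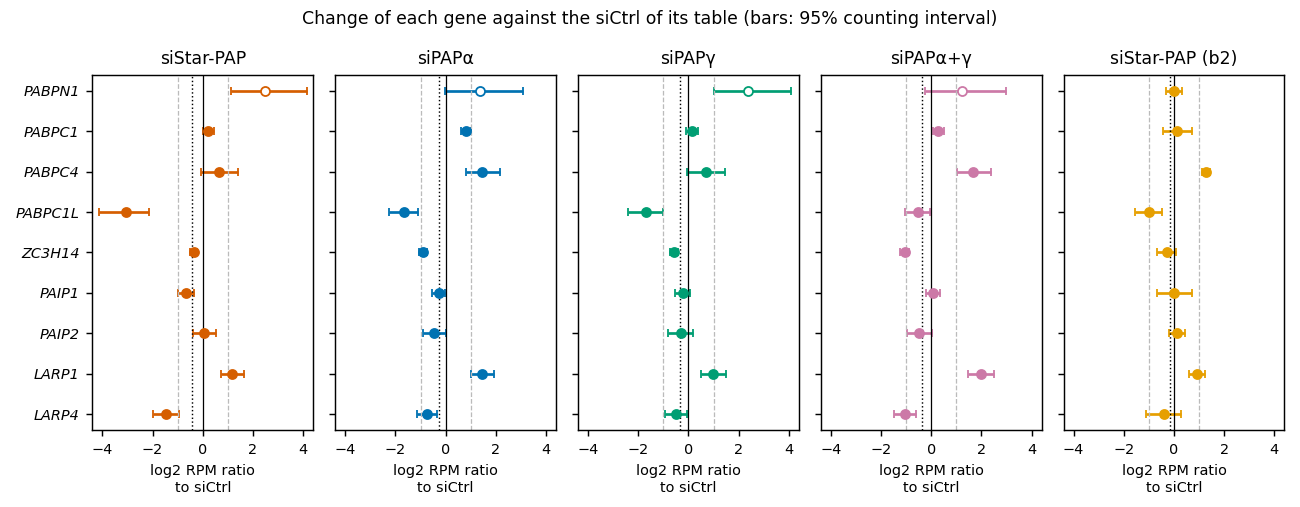
Log2 ratio of RPM in each KD to siCtrl of the same table, with 95% counting intervals. Dashed lines mark 2-fold, the dotted line is the median of all genes, and open points are pairs with at most 50 reads. LARP1, PABPC4, PABPC1 and PABPN1 lie right of 0 in all 5 panels, and PABPC1L, LARP4 and ZC3H14 left of 0. Some of their intervals include 0.

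Among the proteins that bind poly(A) in the cytoplasm, PABPC4 was higher in every KD. PABPC4 is a close relative of PABPC1 that is induced in activated T cells. Its reads numbered 23 in siCtrl, 52 with siStar-PAP, 138 with siPAPα, 48 with siPAPγ, 120 with the double KD, 509 in siCtrl of batch 2 and 1037 with siStar-PAP of batch 2. All 4 KD libraries made with 3′READS had a higher level than siCtrl, at 3.14 to 6.39 RPM against 2.01. The log2 ratio was past 2-fold in siPAPα (1.45, interval 0.81 to 2.16), the double KD (1.67, 1.01 to 2.38) and siStar-PAP of batch 2 (1.28, 1.12 to 1.43). It was 0.64 in siStar-PAP of batch 1 (−0.09 to 1.42) and 0.69 in siPAPγ (−0.06 to 1.47), where the interval included 0.

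The PABPC4 reads of siCtrl in batch 1 were also placed differently along the gene (plot of PAS use). The site at 885 nt held 2 of 23 reads in siCtrl (8.70%), 24 of 52 with siStar-PAP (46.2%), 121 of 138 with siPAPα (87.7%), 34 of 48 with siPAPγ (70.8%) and 111 of 120 with the double KD (92.5%). It held 507 of 509 reads in siCtrl of batch 2 and 1037 of 1037 in siStar-PAP of batch 2. The site at 782 nt, 103 nt upstream of the other, held 12 reads in siCtrl and between 9 and 23 in the KD libraries of 3′READS. These counts are not scaled for depth. As a share of the gene, the site at 782 nt held 52.2% in siCtrl and 44.2% with siStar-PAP. It held 12.3% with siPAPα, 25% with siPAPγ and 7.5% with the double KD. The distal site carries AATAAA. In Fisher's exact test with adjustment over all PASs, the share of the distal site rose in all 4 KDs made with 3′READS, with adjusted p = 0.00631 with siStar-PAP, 1.2e-12 with siPAPα, 1.0e-05 with siPAPγ and 1.4e-14 with the double KD. A pair of intronic sites held the other siCtrl reads (5 and 4) and 0 to 2 reads in each KD, and a site 2 nt past the stop codon had 5 reads in siStar-PAP and 0 elsewhere. Such a test sets the reads of 2 libraries against each other and says nothing of the spread between replicates. The siCtrl side rests on 23 reads.

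PABPC1, the main cytoplasmic poly(A) binding protein, had 254 reads in siCtrl, 429 with siStar-PAP, 987 with siPAPα, 365 with siPAPγ, 513 with the double KD, and 54 and 50 in siCtrl and siStar-PAP of batch 2. In RPM these are 22.2, 25.9, 39.3, 24.7, 27.3, 10.7 and 11.8. The siPAPα library was the highest, with a log2 ratio of 0.82 (0.62 to 1.03). The ratios of the other 4 comparisons lay between 0.14 and 0.27, and of these only the interval of the double KD (0.06 to 0.50) left out 0. The table of batch 1 lists 1 site of this gene, 1385 nt past the stop codon (chromosome 8, position 101715144), which also held 494 of the 513 reads of the double KD. The table of the double KD gives the same siCtrl library 254 reads there and 4 at 187 nt, so sites that the batch 1 table leaves out were not all without reads. In batch 2 this site held only 2 reads in each library, and the site at 1067 nt held 29 of 54 reads (53.7%, interval 39.6 to 67.4) in siCtrl and 40 of 50 (80.0%, 66.3 to 90.0) in siStar-PAP. The site at 187 nt held 14 of 54 and 4 of 50 there and 7 of 513 in the double KD. The site at 1952 nt held 12 reads in the double KD, against 0 of 258 in siCtrl of its table (adjusted p = 0.0315, Fisher's exact test), and 3 and 0 in batch 2. Sites at 1607 nt (3 and 0 reads) and 3488 nt (2 and 3 reads) were listed only in batch 2. PABPC1 has many near-identical copies in the genome, and only uniquely mapped reads were counted, so its level is uncertain.

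PABPC1L, the form known from oocytes and early embryos, was lower in each KD than in its siCtrl. It had 64 reads in siCtrl, 11 with siStar-PAP, 44 with siPAPα, 26 with siPAPγ and 76 with the double KD, then 107 and 45 in siCtrl and siStar-PAP of batch 2. The level in siStar-PAP was the lowest of all, at 0.665 RPM against 5.60 in siCtrl. The log2 ratio was −3.07 (−4.15 to −2.14) with siStar-PAP, −1.68 (−2.26 to −1.10) with siPAPα, −1.67 (−2.39 to −0.99) with siPAPγ, −0.54 (−1.03 to −0.04) with the double KD and −1.001 (−1.54 to −0.49) with siStar-PAP of batch 2. The last ratio was just past 2-fold and was −0.82 under TMM factors. The ratio of the double KD was thus nearer to 0 than that of siPAPα or siPAPγ alone. The site at 575 nt held 69.2% to 88.2% of the reads in each library, and its share rose in the double KD, to 67 of 76 reads from 48 of 67 in siCtrl of that table (adjusted p = 0.0494, Fisher's exact test). A site at 5485 nt, within an intron of the annotated gene, was listed only in batch 2, with 13 of 107 reads in siCtrl and 12 of 45 in siStar-PAP. The other 6 sites described had at most 7 reads in a library. Of these, 1 intronic site (chromosome 20, position 43565831) had 7 of 64 reads in siCtrl and 5 of 26 in siPAPγ.

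Of the nuclear poly(A) binding proteins, ZC3H14 was read more than PABPN1 in the 5 libraries of 3′READS and less in both of batch 2. ZC3H14 had 656 reads in siCtrl, 736 with siStar-PAP, 771 with siPAPα, 566 with siPAPγ, 526 with the double KD, and 147 and 101 in batch 2. Its level in siCtrl of batch 1 was 57.4 RPM and lay above the 28.0 to 44.5 RPM of the 4 KD libraries of 3′READS. The log2 ratio was −0.37 with siStar-PAP, −0.90 with siPAPα, −0.59 with siPAPγ, −1.06 (−1.23 to −0.90) with the double KD and −0.29 (−0.67 to 0.08) with siStar-PAP of batch 2. Under TMM or size factors the sign turned in siStar-PAP of batch 1, and the double KD was no longer past 2-fold.

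The sites of ZC3H14 differed between the protocols. The site at 140 nt, which has none of the hexamers, held 93.5% to 95.8% of the reads in the 5 libraries of 3′READS but 15.0% in siCtrl and 24.8% in siStar-PAP of batch 2. There the sites at 1246 nt and 1761 nt held 46 and 43 of the 147 reads of siCtrl, and 18 and 40 of the 101 reads of siStar-PAP. The site at 1246 nt joins PASs at positions 89079313 and 89079338, with 14 and 32 reads in siCtrl. The hg19 bases that end at position 89079338 close with a run of As. The site at 1761 nt carries AATAAA. An intronic site (chromosome 14, position 89053079) held 28 of 147 reads in siCtrl and 6 of 101 in siStar-PAP of batch 2, and its share fell from 19.0% to 5.94% with an adjusted p = 0.0496 (Fisher's exact test). The site at 4266 nt held 0 and 7 reads in these libraries (adjusted p = 0.0251, Fisher's exact test). The site at 3262 nt held 4.15% to 6.10% of the reads in the 3′READS libraries and 2 reads in each of batch 2. The intronic PAS and that at 4266 nt were the only ones of the 43 tested in batch 2 that were called.

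PABPN1 had 5 reads in siCtrl, 40 with siStar-PAP, 28 with siPAPα, 34 with siPAPγ and 19 with the double KD, then 195 and 165 in siCtrl and siStar-PAP of batch 2. Its level in siCtrl of batch 1 (0.438 RPM) was below the 1.01 to 2.42 RPM of the 4 KD libraries. None of these pairs had more than 50 reads, so PABPN1 was not called there. The log2 ratios were 2.47 (1.12 to 4.16), 1.35 (−0.04 to 3.08), 2.39 (1.03 to 4.10) and 1.21 (−0.26 to 2.99). With far more reads in batch 2 the ratio of siStar-PAP was 0.01 (−0.30 to 0.31). All reads were at 1 site as joined here. The bases shown, which hold AATAAA in 2 places, end at position 23795372. In batch 1 the PAS is listed at position 23795394, and batch 2 lists another at 23795397 with 4 reads in each library. The PASs at 23795372 and 23795394 are listed also under BCL2L2-PABPN1, a readthrough gene that ends at the same place. The reads therefore cannot be given to PABPN1 alone.

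Of the PABPC1 partners that act in translation, PAIP1 was past 2-fold in no comparison, while the use of its sites differed. PAIP1 had 183 reads in siCtrl, 165 with siStar-PAP, 331 with siPAPα, 202 with siPAPγ, 316 with the double KD, and 40 and 34 in batch 2. The log2 ratios ran from −0.68 (−0.996 to −0.37) in siStar-PAP to 0.07 (−0.20 to 0.34) in the double KD. Those of siPAPα (−0.28) and siPAPγ (−0.23) changed sign under TMM or size factors, and that of siPAPγ also with the totals of the tables. That of siStar-PAP in batch 2, 0.01 (−0.69 to 0.71), changed sign with the totals of the tables.

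The proximal site of PAIP1, 268 nt past the stop codon, held 24 of 183 reads in siCtrl (13.1%, interval 8.59 to 18.9). It held 51 of 165 with siStar-PAP (30.9%), 136 of 331 with siPAPα (41.1%), 73 of 202 with siPAPγ (36.1%) and 78 of 316 with the double KD (24.7%). The shares of the 4 KD libraries were all above the interval of siCtrl. The share rose in each of them in Fisher's exact test, with adjusted p = 0.000526, 2.4e-10, 3.1e-06 and 0.00743. The relative expression difference (RED), the log2 ratio of distal to proximal reads in the KD minus that in siCtrl, was −1.57, −2.21, −1.91 and −1.16. In batch 2 the proximal share was 6 of 40 reads in siCtrl (15.0%, 5.71 to 29.8) and 6 of 34 in siStar-PAP (17.6%, 6.76 to 34.5). These intervals overlap widely, and that of siStar-PAP includes the 30.9% of batch 1. Whether a change of the size seen in batch 1 could be detected at this depth was not tested. The site at 268 nt holds AATAAA in 2 places of the 30 bases shown, and the distal site, 844 nt further on, holds it once. Another site, 1657 nt past the stop codon and beyond the annotated gene, had 6 reads in the double KD and 2 in siCtrl of batch 2.

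PAIP2 had 72 reads in siCtrl, 109 with siStar-PAP, 116 with siPAPα, 75 with siPAPγ, 78 with the double KD, and 192 and 176 in batch 2. No ratio was past 2-fold. They lay between −0.48 (double KD) and 0.12 (siStar-PAP, batch 2), and that of siPAPγ changed sign under TMM or size factors. The site at 175 nt was the most read in each library, with 44% to 80.2% of the reads. Its PAS at position 138704648 rose from 59.7% in siCtrl to 78.4% in siPAPα (adjusted p = 0.0222, Fisher's exact test). In siPAPγ the share of this PAS fell to 37.3% (adjusted p = 0.0322, Fisher's exact test). The other comparisons had no call at this site. The share at sites upstream of the last exon was 15.3% in siCtrl, 21.1% with siStar-PAP, 2.59% with siPAPα, 16.0% with siPAPγ and 0 of 78 reads with the double KD, so siPAPα and the double KD lay below the other 3′READS libraries. The 0 of 78 reads allow a share of up to 4.62%, and the table of the double KD lists 11 such siCtrl reads of 66. In batch 2 the share was 2.60% and 5.11%. The intronic site at chromosome 5, position 138699733, whose share fell in siPAPα and in the double KD, had 6 reads in siCtrl and 0 in both of these (adjusted p = 0.00937 and 0.0248, Fisher's exact test). Its share was larger than in siCtrl in siStar-PAP, at 22 of 109 reads against 6 of 72 (adjusted p = 0.0782, Fisher's exact test), in siPAPγ, at 12 of 75 (0.349), and in siStar-PAP of batch 2, at 9 of 176 against 1 of 192 (0.0760), and none of these passed the test. The distal site at 922 nt had 0 reads in siCtrl and siStar-PAP of batch 1, 11 of 78 in the double KD (adjusted p = 0.00421, Fisher's exact test), and 33 of 192 and 37 of 176 in batch 2. It had 8 of 116 in siPAPα and 3 of 75 in siPAPγ. The site at 290 nt held 12 of 72 reads in siCtrl, 9 to 14 in siStar-PAP, siPAPα and the double KD, and 26 of 75 in siPAPγ, where its share rose (adjusted p = 0.0498, Fisher's exact test), and it had 0 and 7 reads in batch 2. The second intronic site, at position 138700461, had 5 reads in siCtrl, 0 to 3 in the KDs of 3′READS, and 4 and 0 in batch 2. Its share fell in the double KD (adjusted p = 0.0479, Fisher's exact test). A site 8998 nt past the stop codon had 6 reads in siCtrl and 0 or 1 in the KDs of batch 1. Its share fell in siStar-PAP and siPAPα (adjusted p = 0.0123 and 0.00937, Fisher's exact test).

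**Figure D3:**
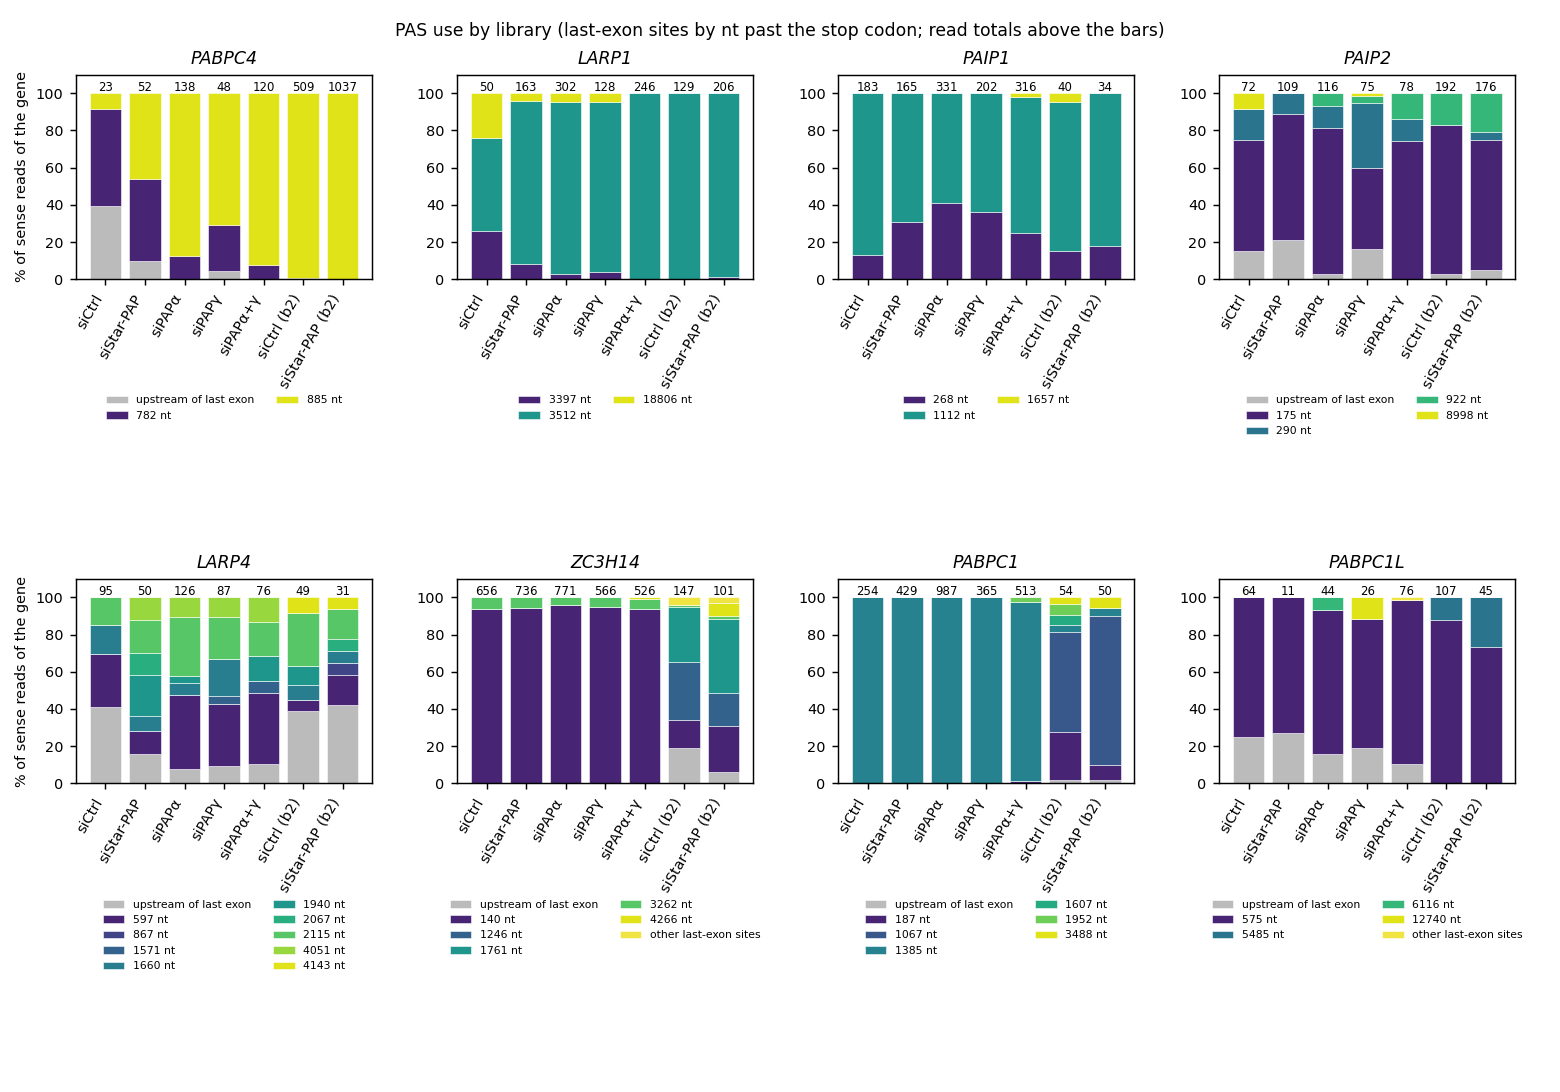
Share of the sense reads of 8 genes at each PAS, by library, in percent; PABPN1 has 1 site and is left out. siCtrl is drawn from the batch 1 table. Colours are last-exon sites by their distance past the stop codon, grey is all sites upstream of the last exon, and the number above a bar is the reads behind it. The distal PABPC4 site holds 8.70% of reads in siCtrl and at least 46.2% elsewhere, and the bars of ZC3H14 and PABPC1 differ between 3′READS and batch 2 (b2).

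LARP1 was higher in every KD than in its siCtrl. It had 50 reads in siCtrl, 163 with siStar-PAP, 302 with siPAPα, 128 with siPAPγ and 246 with the double KD, then 129 and 206 in siCtrl and siStar-PAP of batch 2. In RPM, siCtrl stood at 4.38 and the 4 KD libraries of 3′READS at 8.65 to 13.1, and in batch 2 the levels were 25.6 and 48.5. The log2 ratio was 1.17 (0.71 to 1.66) with siStar-PAP, 1.46 (1.02 to 1.92) with siPAPα, 0.98 (0.50 to 1.49) with siPAPγ, 1.98 (1.48 to 2.51) with the double KD and 0.92 (0.60 to 1.25) with siStar-PAP of batch 2. No interval included 0. The table of the double KD lists 38 of the 50 siCtrl reads because it leaves out a downstream site, and with all 50 siCtrl reads the ratio was 1.58. Any reads of the double KD at that site are missing from this ratio, so the 2 sides do not count the same sites.

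The reads of LARP1 also lay at different sites. The site at 3512 nt, which carries AATAAA and is the annotated end of the gene, held 25 of 50 reads in siCtrl (50%, interval 35.5 to 64.5). It held 87.7% with siStar-PAP, 92.1% with siPAPα, 91.4% with siPAPγ, 100% with the double KD, and 100% and 98.5% in the batch 2 libraries. Its share rose in the 4 KDs of 3′READS with adjusted p = 1.5e-06, 1.8e-10, 1.4e-07 and 1.4e-11 (Fisher's exact test). The last p is against 25 of 38 siCtrl reads (65.8%), as the table of the double KD lists them. The site at 3397 nt, 115 nt upstream and with none of the hexamers, had 13 reads in siCtrl, 13 with siStar-PAP, 9 with siPAPα, 5 with siPAPγ and 0 with the double KD. A site 18806 nt past the stop codon, beyond the annotated gene, had 12 reads in siCtrl and 7, 15 and 6 in the other libraries of batch 1. In PABPC4 and LARP1 alike, a site with AATAAA lay 103 or 115 nt past one without these hexamers, and the site with AATAAA held a larger share in each other library than in siCtrl of batch 1. This likeness was noted after the values had been seen.

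LARP4, whose protein binds poly(A) and PABPC1 and is known to stabilize mRNAs, was lower in each KD than in its siCtrl. Its reads numbered 95 in siCtrl, 50 with siStar-PAP, 126 with siPAPα, 87 with siPAPγ, 76 with the double KD, and 49 and 31 in batch 2. In RPM this was 8.31 in siCtrl against 3.02 to 5.88 in the KD libraries of 3′READS. The log2 ratio was −1.46 (−1.98 to −0.95) with siStar-PAP, −0.73 (−1.12 to −0.33) with siPAPα, −0.50 (−0.94 to −0.06) with siPAPγ, −1.04 (−1.49 to −0.59) with the double KD and −0.41 (−1.11 to 0.27) with siStar-PAP of batch 2. Under TMM factors the ratios of siStar-PAP and the double KD were −0.98 and −0.61, so that none was past 2-fold.

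The LARP4 site within an intron at chromosome 12, position 50855270, an exon of another annotated transcript, held 32 of 95 reads in siCtrl (33.7%, interval 24.3 to 44.1). It held 4 of 50 with siStar-PAP (8.0%, 2.22 to 19.2), 6 of 126 with siPAPα (4.76%), 4 of 87 with siPAPγ (4.60%) and 2 of 76 with the double KD (2.63%). The share was lower in all 4 KD libraries and fell in Fisher's exact test with adjusted p = 0.00259, 1.8e-07, 8.1e-06 and 1.6e-06. The table of batch 2 does not list this site. Another intronic site, at position 50849901, held 7 reads in siCtrl and 4 to 6 in the KDs of 3′READS, and in batch 2 18 of 49 reads (36.7%) in siCtrl and 10 of 31 (32.3%) in siStar-PAP. The site at 4051 nt had 0 of 95 reads in siCtrl and 6, 13, 9 and 10 in the 4 KDs, where its share rose (adjusted p = 0.00582, 0.00305, 0.00623 and 0.00118, Fisher's exact test). With 0 siCtrl reads, this site was listed through KD libraries.

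At the other LARP4 sites the share differed in fewer comparisons. The site at 1940 nt had 0 of 95 reads in siCtrl, 11 of 50 in siStar-PAP (22%, adjusted p = 3.8e-05, Fisher's exact test) and 10 of 76 in the double KD (13.2%, adjusted p = 0.00118), but 5 of 126 in siPAPα and 0 of 87 in siPAPγ. In batch 2 it went the other way, with 5 of 49 reads in siCtrl and 0 of 31 in siStar-PAP. The share of the site at 2115 nt rose in siPAPα from 14.7% to 31.7% (adjusted p = 0.0135, Fisher's exact test) and held 16.1% to 28.6% in the other KDs and in batch 2. That at 597 nt held 28.4% in siCtrl, 12% in siStar-PAP, 33.3% to 39.7% in the other KDs of 3′READS, and 6.12% and 16.1% in batch 2, with no call. The share of the site at 1660 nt fell in the double KD, from 15 of 95 reads to 0 of 76 (adjusted p = 0.000826, Fisher's exact test), and held 6.35% to 19.5% elsewhere. The site at 2067 nt had 6 of 50 reads in siStar-PAP (adjusted p = 0.00582, Fisher's exact test) and 2 in siStar-PAP of batch 2, and that at 1571 nt had 4 in siPAPγ and 5 in the double KD (adjusted p = 0.0427 in the latter). Sites at 867 nt, at 4143 nt and in the intron at position 50869177 were listed only in batch 2, with at most 4 reads.

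Over the members, 13 of 25 PASs tested were called in siStar-PAP, where 40.7% of all PASs were called. The count was 15 of 30 with siPAPα (42.5%), 11 of 30 with siPAPγ (29.6%), 18 of 36 with the double KD (39.1%) and 2 of 43 with siStar-PAP of batch 2 (8.61%). With reads divided by 5, to allow for reads copied from the same molecule, 0, 1, 0, 3 and 0 were called, where 2.44%, 5.64%, 2.25%, 4.34% and 0.107% of all PASs were. PASs of a gene share its reads and are not independent of each other. The called PASs include some with 0 siCtrl reads, which were listed only through KD libraries.

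The place of siCtrl among the 3′READS libraries was then compared for each gene, a count made after the values had been seen. The level of siCtrl in the batch 1 table was below all 4 KD libraries for PABPN1, PABPC1, PABPC4 and LARP1, as for 14.1% of all genes. It was above all 4 for PABPC1L, ZC3H14 and LARP4, as for 46.2% of all genes, and within their range for PAIP1 and PAIP2. The 4 comparisons rest on that 1 siCtrl library.

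The siStar-PAP KD is the only one that could be tested over batches, with edgeR's quasi-likelihood test and batch as a block over the 11878 genes that passed the filter on low counts, all 9 members included. The fit called 1 member up and 0 down, where 1.23% of all genes were up and 1.08% down. PABPC4 rose, with a log2 change of 1.34 (SE 0.36) and an edgeR adjusted p = 0.0496. LARP1 had a like change of 1.38 (SE 0.37) with an edgeR adjusted p = 0.0511 and so stood just outside the limit of 0.05, while PABPC4 stood just inside. In each batch both genes were higher in siStar-PAP. With DESeq2 PABPC4 was called (adjusted p = 0.0112) and LARP1 was not (0.0749). Without the block neither was (edgeR adjusted p = 0.9997 for both), and 0 genes of the series were called, with 54 at an unadjusted p under 0.05, none of them a member.

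PABPC1L was lower in siStar-PAP of both batches but was not called, with −1.56 (SE 0.51, edgeR adjusted p = 0.119). PABPN1 had a change of 1.09 (SE 0.49, edgeR adjusted p = 0.295), over ratios of 2.47 in batch 1 and 0.01 in batch 2. The other 5 members lay between −0.60 (LARP4) and 0.55 (PABPC1), with edgeR adjusted p from 0.540 to 0.998. The median change of the members was 0.44 and that of all genes tested −0.0024.

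**Figure D4:**
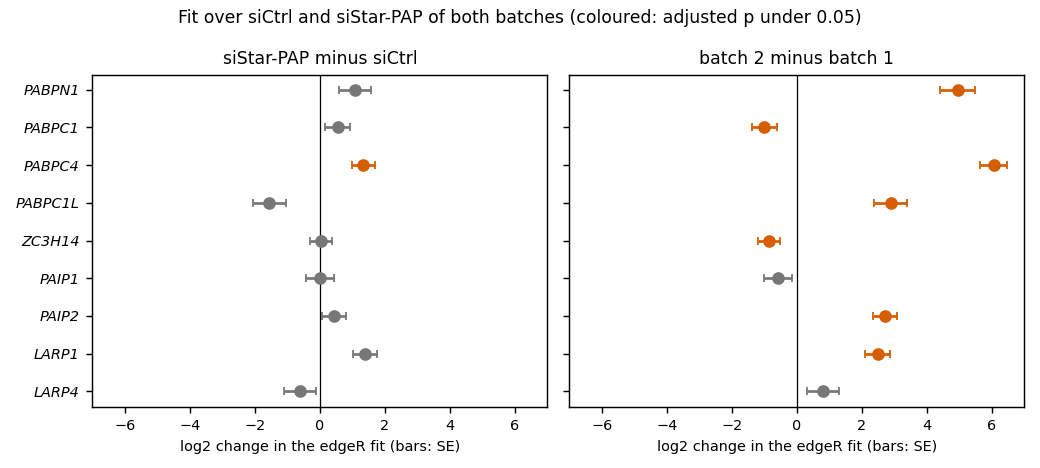
Log2 change of each gene in the edgeR fit over siCtrl and siStar-PAP of both batches, with standard errors. The left panel is siStar-PAP minus siCtrl and the right panel batch 2 minus batch 1. Coloured points have an adjusted p under 0.05, which is PABPC4 alone on the left and 7 of 9 genes on the right, where PABPC4 lies at 6.06.

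In the same fit 5 members were higher and 2 lower in batch 2 than in batch 1, against 24.8% and 26.2% of all genes. This contrast was chosen after the values had been seen, and batch, protocol and any difference between the cultures cannot be told apart in it. PABPC4 differed by 6.06 (SE 0.41), PABPN1 by 4.95 (SE 0.53), PABPC1L by 2.89 (SE 0.51), PAIP2 by 2.71 (SE 0.38) and LARP1 by 2.49 (SE 0.38), on the log2 scale. PABPC1 (−1.01, SE 0.38) and ZC3H14 (−0.85, SE 0.34) were lower, though DESeq2 called neither. The change of PABPC4 between batches was several times that with Star-PAP KD.

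Genes related to these members were counted from lists set by known function. The lists were also chosen with earlier results of these data known, so their counts describe the lists and are no independent result. Of 9 paralogs, 6 are in the tables and 3 were over the read limit in each comparison of 3′READS and 1 in batch 2, none of them past 2-fold up in any. Past 2-fold down were 2, 1, 1, 1 and 1 in the order of the comparisons above. Besides PAIP2B these were LARP1B in siStar-PAP of batch 1 (−2.01) and LARP4B in batch 2 (−1.41), named after their values had been seen. PAIP2B, the paralog of PAIP2, was lower in the 4 KDs of 3′READS, with 95 reads in siCtrl, 38 with siStar-PAP, 20 with siPAPα, 44 with siPAPγ and 27 with the double KD. Its log2 ratios were −1.86, −3.38, −1.48 and −2.53, and batch 2 held 4 and 1 reads. Among 20 proteins that bind PABPC or meet it in translation, release or decay, 2 were higher and 3 lower of 14 over the read limit with siStar-PAP, 6 and 2 of 18 with siPAPα, 6 and 0 of 15 with siPAPγ, 5 and 1 of 17 with the double KD, and 2 and 2 of 11 with siStar-PAP of batch 2. For both lists the shares of all genes, in the same order, were 4.44%, 8.50%, 5.67%, 6.98% and 3.55% past 2-fold up. Past 2-fold down they were 26.2%, 22.1%, 20.7%, 26.5% and 11.7%.

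In the fit over both batches 2 of these partners rose and 0 fell of 18 tested, where 1.23% of all genes rose and 1.08% fell. GSPT1, which encodes the release factor eRF3a that binds PABPC1 at translation termination, had 241 reads in siCtrl and 952 to 1806 in the KDs of batch 1, then 126 and 297 in batch 2. It was past 2-fold up in all 5 comparisons (log2 ratio 1.49 to 1.89), with a fitted change of 2.05 (SE 0.35, edgeR adjusted p = 0.00456). IGF2BP1, an mRNA binding protein found with PABPC1, had 264 reads in siCtrl, 741 in siStar-PAP and 294 and 631 in batch 2, with a fitted change of 1.502 (SE 0.33, edgeR adjusted p = 0.0177). It was past 2-fold up in the 4 other comparisons and at 0.95 in siStar-PAP of batch 1. TNRC6A, a protein of miRNA silencing that binds PABPC1, was past 2-fold down in 4 comparisons and at −0.76 in siPAPγ, with a fitted change of −0.93 (SE 0.33, edgeR adjusted p = 0.167).

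Of 13 nuclear factors that act on poly(A) RNA, 12 were over the read limit in each comparison. In none was 1 past 2-fold up, and 2, 3, 1, 4 and 0 were past 2-fold down in siStar-PAP, siPAPα, siPAPγ, the double KD and siStar-PAP of batch 2. Of all genes, 26.2%, 22.1%, 20.7%, 26.5% and 11.7% were past 2-fold down in the same order. Past 2-fold up were 4.44%, 8.50%, 5.67%, 6.98% and 3.55% of all genes. THOC1, a subunit of the THO complex of mRNA export, was lower than siCtrl in the 4 KDs of 3′READS, with 3639 reads in siCtrl and 1382 to 2460 in the KDs (log2 ratio −1.70 to −1.97). In batch 2 its ratio was −0.58, and the fitted change was −0.87 (SE 0.35, edgeR adjusted p = 0.222). No factor of this list was called in the fit.

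The genes whose levels varied most like those of PABPC1 over the 7 libraries were CIZ1, EXOSC1 and ATIC, out of 3765 genes that had 50 or more reads in every library. The mean absolute difference of their centred log2 RPM from that of PABPC1 was 0.11 for each of the 3. For PABPN1 the nearest were TOMM40 (0.41), C10orf47 (0.53) and CHERP (0.55). PABPN1 itself had fewer than 50 reads in 5 libraries. The libraries of a batch share their protocol, and the likeness is given as a description only.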

How the data were processed

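Poly(A) sites were measured by 3′READS or 3′READS+ in 7 libraries of HEK293 cells. Per the labels and the study's methods, alignment by the authors was to hg19 with Bowtie2 in local mode. They took uniquely mapped reads (MAPQ over 10) with 2 or more untemplated Ts at the 5′ end as PASS reads. They joined PASs within 24 nt of each other, dropped rare PASs, and deposited the reads per PAS as counts without normalization in 3 tables. The table of the double KD repeats siCtrl, with the same counts at 23 of 23 member PASs listed in both. All columns were mapped to libraries (0 were left out). Whether duplicate reads were removed is not given in the sources used here.

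Sense PASs were summed per gene, with upstream antisense sites left out. RPM used the PASS read totals that the study gives, since the tables hold only part of each library. Ratios have exact conditional intervals, levels exact Poisson intervals and shares exact Clopper-Pearson intervals (95%). For 0 reads the upper bound of these exact intervals is the limit given. PAS use was tested per PAS against the other sense PASs of its gene (two-sided Fisher's exact test, at least 20 gene reads in each library, Benjamini-Hochberg adjustment over all PASs, threshold 0.05) in place of the study's SAAP program, which was not used here. With 1 library per condition these tests compare libraries.

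siCtrl and siStar-PAP of both batches were fitted with edgeR (quasi-likelihood test with Benjamini-Hochberg adjustment, TMM factors and the default filter) with batch as a block, because each siStar-PAP library belongs with the siCtrl of its own batch. In the check of this pairing, deviations of same-numbered libraries from their group means correlated at r = 0.871 over 11878 genes. Because the batches also differ in protocol, this r cannot tell a pairing of cultures from a shared protocol. There was 1 residual degree of freedom. Alternatives were table totals, TMM and size factors (DESeq2), other limits on reads and fold, a pseudocount of 1 read, reads divided by 5, no block, no filter, DESeq2 and each batch left out. Steps were tested on simulated data.

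The members and lists were chosen with earlier results of these data known. All 9 members are described, with the PASs that hold at least 5% of a member's reads in some library. The other PASs of LARP4, PABPC1, PABPC1L and ZC3H14 together held at most 4.08% in any library. Related genes were to be named only if called in the fit or past 2-fold in the same direction in at least 4 of 5 comparisons. LARP1B and LARP4B do not meet this rule and were named after their values had been seen. Sequences were read from the GRCh37 (hg19) genome, and gene spans from GENCODE. R 4.3.3, edgeR 4.0.16, DESeq2 1.42.0, Python 3.11.15, pandas 2.3.3 and scipy 1.17.1 were used.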

Additional observations from a re-analysis of the deposited data

Results flagged for a closer look

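PAIP1 had a log2 ratio of siStar-PAP to siCtrl of −0.68 in batch 1 and 0.014 in batch 2, which are of opposite sign. The difference was not tested. The interval in batch 2, −0.69 to 0.71 from 40 and 34 reads, just includes the value of batch 1.

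Reads upstream and antisense of a member stood above siCtrl in 2 cases, both low. An antisense site upstream of PABPC1 had 4 reads in the double KD and 0 in siCtrl, and one upstream of PABPN1 had 5 reads in siStar-PAP of batch 1 and 0 in siCtrl, siPAPα and siPAPγ.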

How the results depend on the processing

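Star-PAP fit over both batches. Called members numbered 1 up and 0 down with the block. Without the replicate block there were 0 up and 0 down, and 0 genes in all (146 up and 128 down with it), and this was the only alternative with a test in which PABPC4 lost its call. Without the filter on low counts 2 members were up (LARP1 joined, adjusted p = 0.0199) and 1 was down (PABPC1L, 0.0484), and 232 genes were down in all. DESeq2 called 83 genes down. The change of PAIP1, near 0, turned to 0.022 with RLE factors and 0.040 with DESeq2. With each batch left out the log2 change ran from −0.21 to 0.19 for PAIP1, from −0.11 to 0.10 for ZC3H14, from 0.19 to 2.90 for PABPN1, from −2.59 to −0.82 for PABPC1L, from 1.10 to 1.64 for LARP1 and from 1.11 to 1.45 for PABPC4, as values with no test. In the contrast of the batches, chosen after seeing the data, DESeq2 called 0 members lower against 2.

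Members past 2-fold. In siStar-PAP of batch 1, 2 were up with TMM factors, with size factors, without the read limit and at 1.5-fold (1 in the report), and 1 was down with TMM or size factors (2 in the report). In siPAPα 3 were down at 1.5-fold (1 in the report). In siPAPγ, with 0 up in the report, 1 was up with table totals or without the read limit, 2 with TMM factors, size factors or at 1.5-fold, and 2 were down at 1.5-fold (1 in the report). In the double KD 0 were down with table totals, TMM or size factors (2 in the report), and with the siCtrl reads of the batch 1 table, an alternative added after seeing the data, 2 were up and 2 down. In siStar-PAP of batch 2, 2 were up with TMM factors, size factors or at 1.5-fold, and 0 were down with TMM factors, size factors or 1 read added (1 and 1 in the report). TMM and size factors moved the median of all genes up by 0.18 to 0.48, and the ratios of a comparison with it.

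PAS use. With reads divided by 5, 0, 1, 0, 3 and 0 member PASs were called (13, 15, 11, 18 and 2 in the report). Over all PASs the calls went from 12174 to 692, 13754 to 1722, 9018 to 636, 12673 to 1314 and 1622 to 17. With a change of at least 10 percentage points also required, 1 was called in batch 2. The causes of the other differences were not tested. Depth limits most the siCtrl values of PABPN1, PABPC4 and LARP1 in batch 1 (5, 23 and 50 reads) and PAIP1 and LARP4 in batch 2.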

Other observations

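An antisense site upstream of PABPC4 (chromosome 1, position 40043163) had 10 reads in siCtrl of batch 1, 0 with siStar-PAP, 1 with siPAPα, 1 with siPAPγ and 0 with the double KD. On the sense strand PABPC4 had 23 reads in that siCtrl library, fewer than in any other library.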
